A study of Homo sapiens with 6 samples.

Results

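The genes described here encode the subunits of the 2 condensin complexes, the DNA topoisomerase TOP2A and the chromosome periphery protein MKI67 (Ki-67). They were chosen by function, as the rows of the count table whose transcript ID belongs to SMC2, SMC4, NCAPD2, NCAPG, NCAPH, NCAPD3, NCAPG2, NCAPH2, TOP2A or MKI67. Both these genes and the lists set beside them were chosen with earlier results of these data known, so comparisons with the background are descriptions. All 10 genes had 1 row each among 22279 transcript IDs, and all 10 had enough counts to be tested.

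Condensins are ring-shaped ATP-driven motors that extrude DNA loops and fold mitotic chromosomes. Both complexes share the core ATPases SMC2 and SMC4. Condensin I adds NCAPD2, NCAPG and NCAPH and reaches chromosomes after the nuclear envelope breaks down, whereas condensin II adds NCAPD3, NCAPG2 and NCAPH2 and is nuclear throughout the cell cycle. TOP2A removes the tangles between DNA molecules so that sister chromatids can be folded and parted, and Ki-67 coats mitotic chromosomes and keeps them apart as a surfactant. RB, the retinoblastoma protein, restrains E2F-driven transcription and is also known to bind condensin II.

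The measurements came from RNA-seq of LNCaP cells, an established line from a human prostate cancer that responds to androgen. There were 3 libraries of cells with a hairpin against RB (shRB) and 3 of cells with a control hairpin (shCON). Cells of both groups were held for 72 h in a treatment that the labels name CDT and class as causing cell cycle arrest, and the series calls the condition hormone deficient. The labels give a single hairpin name per group and do not say whether replicates were separate cultures or whether the cells were clonal, so the p-values cover library-to-library spread, which may be technical. Effects of the hairpin itself and of RB loss cannot be told apart.

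RB1 mRNA was at 9.18% of its control level in shRB (log2 fold change −3.43 ± 0.13, SE; edgeR adjusted p = 2.4e-09), and every shRB library lay below every shCON library. Library totals ran from 6115310 to 20091488 counts, and the 10 genes had between 128 and 2140 counts per library. All 12 prostate luminal markers were present in every library, and 3 were called higher and 2 lower in shRB. Over all tested IDs 12.8% were called higher and 12.5% lower. Levels are given in CPM, counts scaled to the normalized library size. Of 8 leukocyte markers 4 were at 0 throughout, PTPRC and CD3E among them, and the list, mostly CD68, summed to 5.72 to 7.41 CPM in shCON and 5.28 to 5.41 CPM in shRB. Of 8 fibroblast markers 5 were in the table, with COL1A2 at 0, and their sum, mostly COL1A1, was 18.5 to 23.1 CPM in shCON and 13.6 to 17.5 CPM in shRB. Of 4 basal markers 3 were in the table, with KRT5 at 0, and summed to 0.301 to 0.638 CPM in shCON and at most 0.106 CPM in shRB. The part of such cells in the results was not tested. Among the shRB libraries, number 2 differed most: its chi-square per degree of freedom over transcript IDs was 11.3 against shRB 1 and 11.4 against shRB 3, while those 2 libraries gave 2.31. Between shCON 1 and shCON 2 it was 5.89, while shCON 3 gave 2.23 against shCON 1 and 2.44 against shCON 2. Results that rest on shRB 2 are given with and without it.

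Of the 10 genes, 8 were higher in shRB at a Benjamini-Hochberg adjusted p under 0.05 in edgeR's quasi-likelihood test and 0 were lower. The background share of tested transcript IDs called higher was 12.8% and called lower 12.5%. The 6 subunits that belong to only 1 of the complexes, TOP2A and MKI67 rose by 1.22-fold (NCAPD3) to 1.53-fold (TOP2A). The shared ATPases SMC2 and SMC4 were not called. The median log2 fold change of the 10 genes was 0.45, against −0.0062 over all 11712 IDs tested. The 0 lower calls also held at an unadjusted p under 0.05, in DESeq2 and in limma-voom. In 8 of the 10 genes every shRB library lay above every shCON library, a separation seen in that direction in 21% of IDs tested. They were the 8 called genes. Calls and separation come from the same libraries, so the separation adds no further support. Without shRB 2 all 10 genes rose, while the IDs called higher went from 1499 of 11712 to 2074 of 11877. Without shCON 2, shRB 1 or shRB 3, 5 of the 10 genes rose. The IDs called higher in these fits were 1122 of 11841, 1204 of 11816 and 1193 of 11820. In bulk RNA a larger share of dividing cells and more of an mRNA per cell cannot be told apart.

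**Figure D1:**
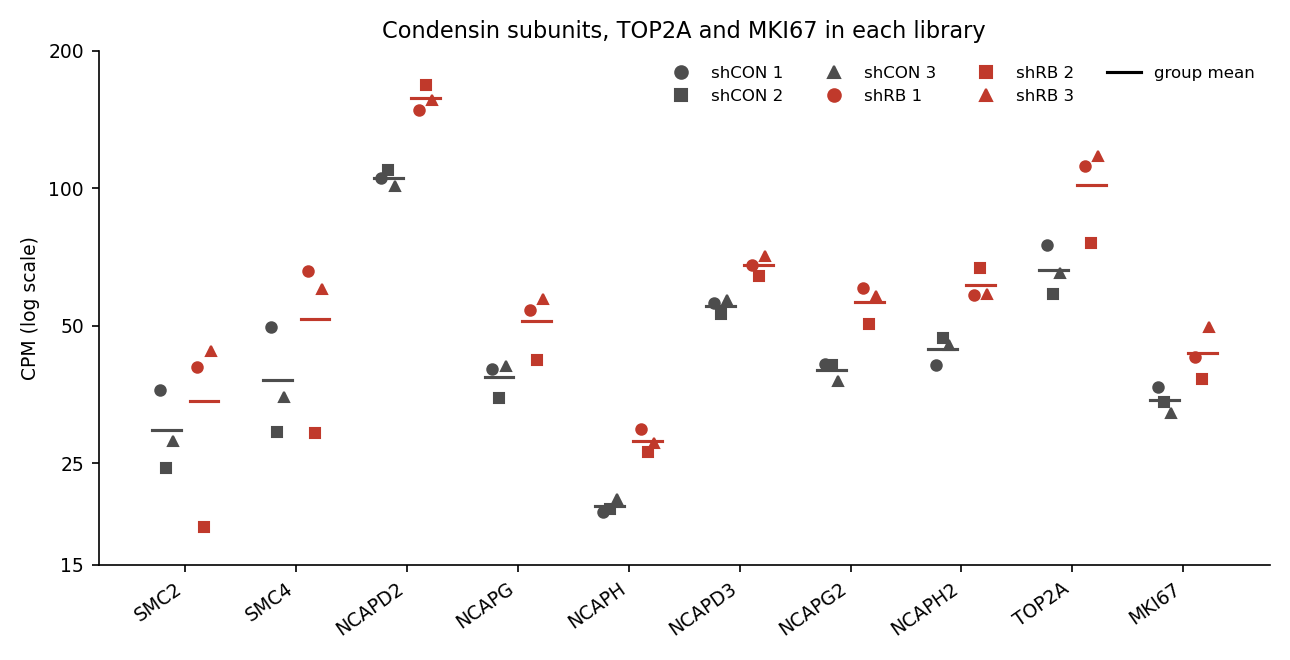
CPM (log axis) of the 10 genes in each of the 6 libraries; symbols mark the replicate number, grey is shCON, red is shRB and bars are group means of 3 libraries. The groups separate in every gene except SMC2 and SMC4, where shRB 2 reads 18.1 and 29.2 CPM and lies below every control.

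Promoter sequence is shown because late cell cycle genes are known for the cell cycle homology region (CHR), with the letters TTTGAA. It often lies beside a CCAAT box bound by NF-Y. The CHR is a landing site for the DREAM and MuvB complexes, through which pocket proteins repress mitotic genes. RefSeq promoter windows (GRCh38.p14, 250 bases before to 50 after each annotated start) matched 9 of the 10 genes with 12 windows; NCAPH2 did not match. TTTGAA on either strand was found in 8 of the 12 windows (66.7%), covering 8 of 9 genes. Among 20535 windows of genes in the count table it was found in 12.6%. The gene without a match was NCAPH, which was called higher, while SMC2 and SMC4 had a match and were not called. A link between the letters and the rise was not tested. CCAAT on either strand was in 5 of 12 windows (41.7%), against 34.6% of the larger set. One of the E2F sequences TTTGGCGC, TTTCCCGC, TTTCGCGC or TTTGCCGC was in 1 window, that of NCAPD3 (8.33%, against 3.90%). A match describes the letters in the window, not binding. The stretches below run 5′ to 3′ on the gene's strand, and capitals mark TTTGAA or its reverse complement TTCAAA and CCAAT or its reverse complement ATTGG.
MKI67, chr10:128126424-128126573, minus strand, with 2 CHR matches before the start, of which the nearer overlaps a CCAAT match by 1 base: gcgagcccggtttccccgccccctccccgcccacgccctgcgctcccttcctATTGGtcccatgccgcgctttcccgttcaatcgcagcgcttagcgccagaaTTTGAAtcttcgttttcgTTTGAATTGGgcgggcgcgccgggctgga
TOP2A, chr17:40417951-40418146, minus strand, with 2 CHR matches and 3 of its 4 CCAAT matches: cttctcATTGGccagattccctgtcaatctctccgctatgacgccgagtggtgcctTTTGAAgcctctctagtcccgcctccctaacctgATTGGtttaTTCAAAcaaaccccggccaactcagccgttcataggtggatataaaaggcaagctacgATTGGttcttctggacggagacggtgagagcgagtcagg
SMC2, chr9:104094294-104094323, plus strand: ctcgcgccgaaaTTCAAAggaataaatagt
SMC4, chr3:160399563-160399592, plus strand: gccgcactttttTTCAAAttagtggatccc
NCAPD2, chr12:6493945-6493974, plus strand: cagccgttgagaTTTGAActcggtatttgt
NCAPG, chr4:17810932-17810961, plus strand: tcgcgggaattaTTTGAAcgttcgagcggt
NCAPD3, chr11:134223953-134223982, minus strand: gcgggagcgagcTTTGAAagttgagcacgg
NCAPG2, chr7:158704755-158704784, minus strand: gcgccggcgggtgcgTTTGAAtctggtccg

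The CHR match lay before the start in SMC4, NCAPD2, NCAPG, TOP2A and MKI67, spanned it in SMC2 and NCAPD3, and lay 36 to 41 bases after it in NCAPG2. SMC2, SMC4 and NCAPD3 each have a further RefSeq start whose window held none of the letters searched. In the list of other mitotic genes 17 of 25 windows held TTTGAA (68.0%) and 1 held an E2F sequence. In the S-phase list the order was turned, with TTTGAA in 1 of 24 windows (4.17%) and an E2F sequence in 11 of 24 (45.8%). Of windows of the other SMC complexes 1 of 13 held TTTGAA.

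**Figure D2:**
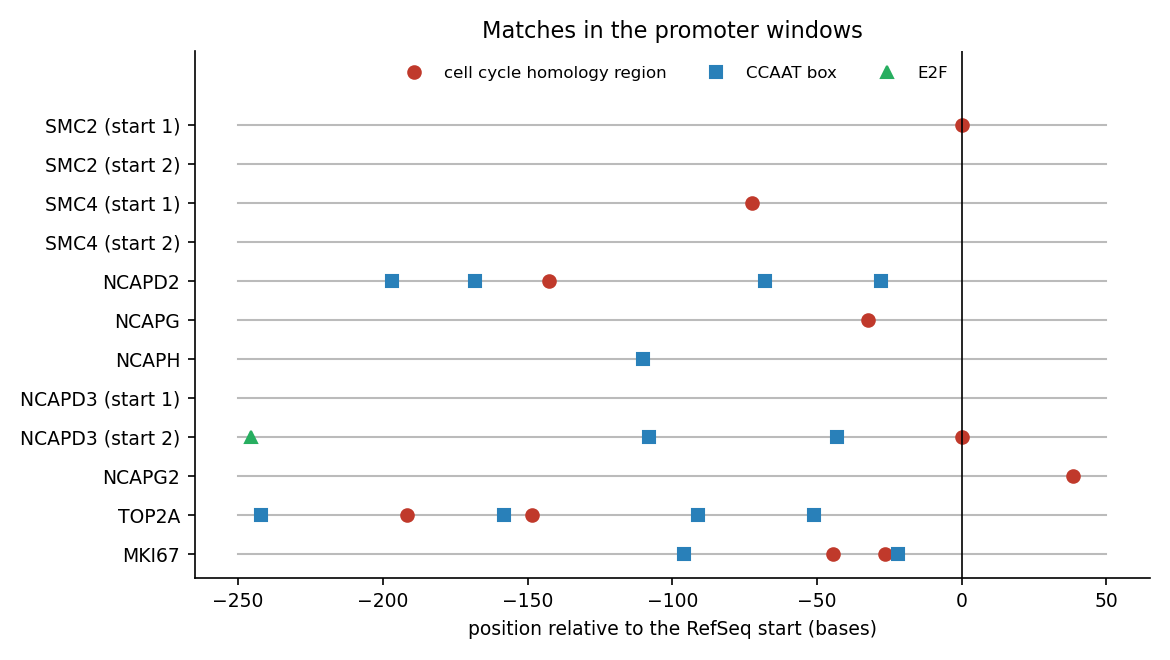
Positions of matches to the CHR, CCAAT and E2F letters on either strand in the 12 RefSeq promoter windows, in bases relative to the annotated start (0 on the axis). CHR matches occur in 8 of 9 genes, and several CCAAT matches accompany them in NCAPD2, NCAPD3, TOP2A and MKI67.

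All subunits found only in condensin I were higher in shRB. NCAPD2 (ENST00000315579, chromosome 12), a HEAT-repeat subunit, read 105, 109.7 and 101 CPM in the control libraries 1, 2 and 3, and 148, 168 and 156 CPM in the shRB libraries in the same order. The groups were far apart relative to their spread. The log2 fold change was 0.58 ± 0.077 (SE; edgeR adjusted p = 0.00011), a rise of 49.4% and the smallest p of the 10 genes. Exons of MRPL51 on the opposite strand cover 8.35% of the NCAPD2 exon bases in GENCODE. No row of the count table matched MRPL51, so its part in the NCAPD2 count could not be tested. NCAPH (ENST00000240423, chromosome 2), the kleisin that closes the ring, read 19.6, 19.9 and 20.9 CPM in shCON and 29.7, 26.4 and 27.7 CPM in shRB. Its control libraries differed by little more than 1 CPM, and its log2 fold change was 0.48 ± 0.10 (SE; edgeR adjusted p = 0.0040).

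NCAPG (ENST00000251496, chromosome 4), the second HEAT-repeat subunit of condensin I, was 40.3, 34.7 and 40.8 CPM in shCON and 54.2, 42.1 and 57.2 CPM in shRB. The lowest shRB library, shRB 2, exceeded the highest control by little. The log2 fold change was 0.41 ± 0.12 (SE; edgeR adjusted p = 0.023). The call was lost without shCON 2 (adjusted p = 0.092), shRB 1 (adjusted p = 0.073) or shRB 3 (adjusted p = 0.098), while without shRB 2 the log2 fold change was 0.54. Exons of LCORL on the opposite strand cover 34.99% of the NCAPG exon bases in GENCODE, and the use of strand in counting is not given in the sources used here. LCORL was at 14.7 CPM in shCON and 17.3 CPM in shRB (log2 fold change 0.23 ± 0.13, SE; edgeR adjusted p = 0.21), and its part in the NCAPG count was not tested.

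The subunits found only in condensin II, the complex to which RB is known to bind, also rose. NCAPG2 (ENST00000356309, chromosome 7), a HEAT-repeat subunit, read 41.2, 41.1 and 37.9 CPM in shCON and 60.4, 50.5 and 58.2 CPM in shRB. Its log2 fold change was 0.49 ± 0.095 (SE; edgeR adjusted p = 0.0023). NCAPH2 (ENST00000299821, chromosome 22), the kleisin of condensin II, read 41.1, 47.02 and 45.4 CPM in shCON and 58.5, 66.9 and 58.7 CPM in shRB. Of the 10 genes, NCAPH2 and NCAPD2 had their highest value in shRB 2. The NCAPH2 log2 fold change was 0.47 ± 0.094 (SE; edgeR adjusted p = 0.0028).

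NCAPD3 (ENST00000534548, chromosome 11), the HEAT-repeat subunit through which RB has been linked to condensin II, had the smallest rise of the 8 called genes. It read 56.2, 53.05 and 56.9 CPM in shCON and 68.02, 64.3 and 70.9 CPM in shRB, so that the groups did not overlap. The log2 fold change was 0.29 ± 0.082 (SE; edgeR adjusted p = 0.019), a rise of 22.4%. The call was lost when any library other than shRB 2 was left out (edgeR adjusted p of 0.053 to 0.073) and kept without shRB 2.

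The counterparts in the 2 complexes were set side by side as log2 ratios within each library. NCAPD2 over NCAPD3 was 0.90, 1.05 and 0.83 in shCON and 1.12, 1.38 and 1.14 in shRB. The ratio was larger in every shRB library than in any control, by 0.29 on average, with an exact two-sided permutation p of 0.1, the smallest that 3 against 3 libraries allow, and 0.9 after Benjamini-Hochberg adjustment over 9 such ratios. NCAPG over NCAPG2 averaged −0.056 ± 0.18 in shCON and −0.15 ± 0.12 in shRB (SD, n = 3; exact permutation p = 0.5). NCAPH over NCAPH2 averaged −1.14 ± 0.088 and −1.13 ± 0.19 (SD, n = 3; exact permutation p = 1). These 3 ratios compare the complexes, and the other 6, of a complex-specific subunit to SMC2, had exact permutation p of 0.5 to 0.8. Since no ratio could have reached 0.05 in this test, the p-values do not show whether the complexes differ in response.

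The shared ATPases did not separate the groups. SMC2 (ENST00000286398, chromosome 9) read 36.2, 24.4 and 27.9 CPM in shCON and 40.5, 18.1 and 44.1 CPM in shRB. The reading of shRB 2 was below every control and those of shRB 1 and shRB 3 were above every control. The log2 fold change was 0.20 ± 0.24 (SE), with a 95% interval of −0.32 to 0.72 and an edgeR adjusted p of 0.59. SMC4 (ENST00000357388, chromosome 3) read 49.6, 29.3 and 34.96 CPM in shCON and 66.02, 29.2 and 60.1 CPM in shRB. Again shRB 2 was the lowest of all libraries, here only just below shCON 2. Its log2 fold change was 0.43 ± 0.24 (SE), with a 95% interval of −0.096 to 0.95 and an edgeR adjusted p of 0.22. These intervals include the rises seen in the other subunits.

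Without shRB 2 the log2 fold change was 0.48 for SMC2 (edgeR adjusted p = 0.00023) and 0.69 for SMC4 (edgeR adjusted p = 5.3e-07). Without shRB 3 it was −0.018 for SMC2 (edgeR adjusted p = 0.97) and 0.31 for SMC4 (edgeR adjusted p = 0.46). Other libraries also moved these values by over 1.5 times. SMC4 was at 0.21 without shRB 1, 0.27 without shCON 2 and 0.70 without shCON 1, and SMC2 at 0.062, 0.076 and 0.40, with no call in any of these fits (edgeR adjusted p of at least 0.069). With no filter on low counts SMC4 was called at nearly the same log2 fold change of 0.42 (edgeR adjusted p = 0.00080). That fit held 16586 IDs, of which 1641 were called higher. The SMC4 call thus came with the wider set of IDs and not with a larger fold change. Among the controls shCON 1, the deepest library, was the highest for both genes. Exons of TRIM59 and IFT80 on the opposite strand cover 28.5% and 8.15% of the SMC4 exon bases over all their annotated transcripts. The transcripts under which TRIM59 and IFT80 are counted in the table share 0% and 4.19% of those bases. TRIM59 was at 19.1 CPM in shCON and 26.3 CPM in shRB and was called higher (edgeR adjusted p = 0.014), IFT80 was at 26.8 and 23.7 CPM (adjusted p = 0.55), and their part in the SMC4 count was not tested.

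**Figure D3:**
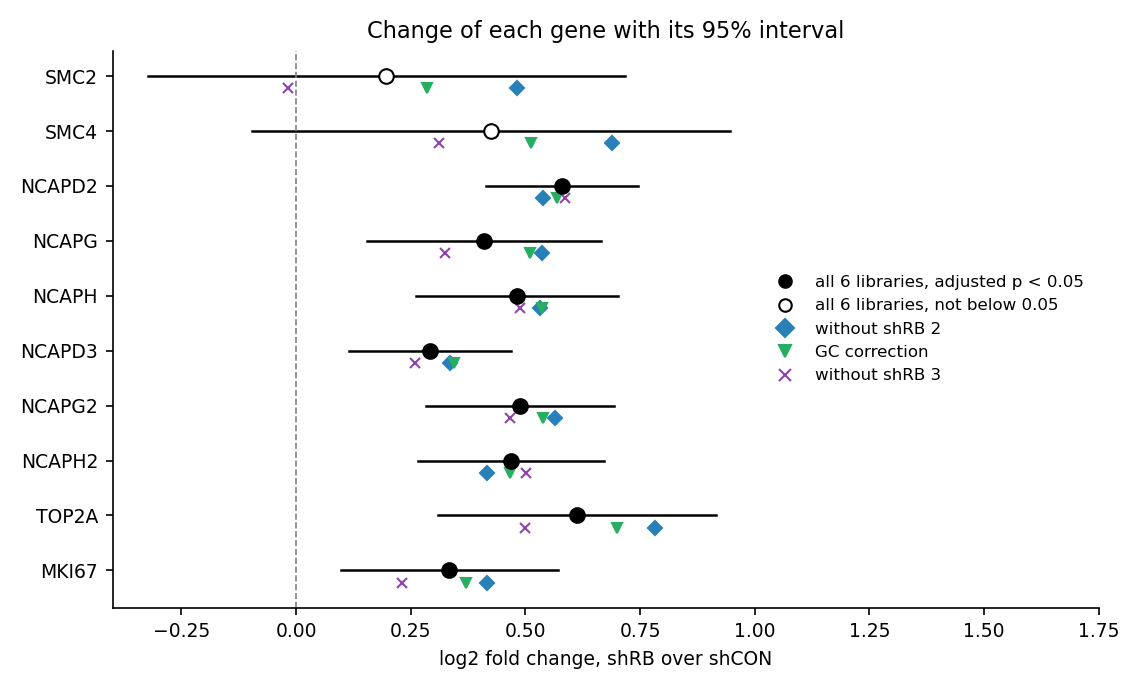
Log2 fold change of shRB over shCON for each gene with all 6 libraries (circles, filled where the edgeR adjusted p was below 0.05, with 95% intervals) and, just below, without shRB 2, with a correction for GC content and without shRB 3. SMC2 ranges from −0.018 to 0.48 across these fits, while NCAPD2, NCAPH, NCAPG2 and NCAPH2 stay close to their circles.

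The position of shRB 2 went with the GC content of the transcripts. SMC4 and SMC2 have the lowest GC content of the 10 genes (37.3% and 37.6%), and in shRB 2 they were 1.11 and 1.21 lower on the log2 CPM scale than the mean of shRB 1 and shRB 3. NCAPG (39.0% GC) and TOP2A (39.1% GC) were lower by 0.40 and 0.59, and NCAPH2 (62.1% GC) was higher by 0.19. Over all tested transcripts of at most 40% GC the median difference was −0.35, and over those above 60% it was 0.22. In that low-GC class of 1633 transcripts, only 1.59% were further below than SMC2 and 2.33% further below than SMC4. After a per-library loess correction for GC content the log2 fold changes were 0.29 for SMC2 (edgeR adjusted p = 0.14) and 0.51 for SMC4 (edgeR adjusted p = 0.010), and 9 of the 10 genes rose. The correction also raised the IDs called higher from 1499 to 2669 of 11712.

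**Figure D4:**
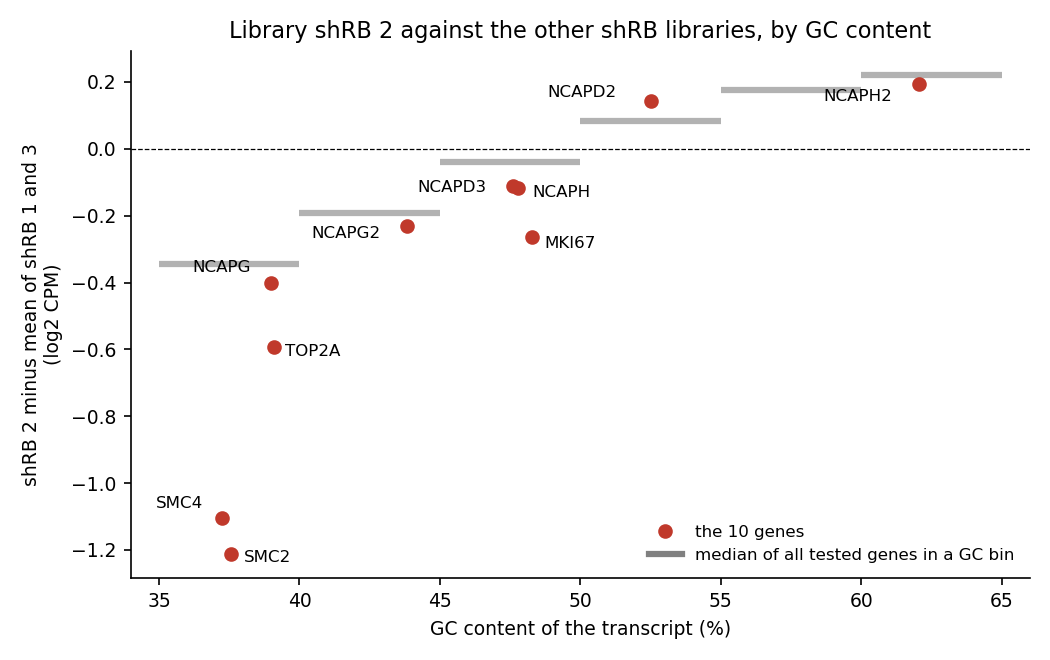
Difference in log2 CPM between shRB 2 and the mean of shRB 1 and shRB 3, against transcript GC content, for the 10 genes (red points) and as the median of all tested transcripts in each GC class (grey bars, with the open-ended outer classes drawn at a fixed width). SMC2 and SMC4 lie at −1.21 and −1.11, far below the bar of their class at −0.35, and NCAPH2 at the right lies at 0.19.

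TOP2A had the largest rise of the 10 genes with all 6 libraries. TOP2A (ENST00000423485, chromosome 17) read 75.01, 58.7 and 65.2 CPM in shCON and 112, 76.0 and 118 CPM in shRB. The groups touched, with shRB 2 only just above shCON 1, and shRB 1 and shRB 3 were well above every control. The log2 fold change was 0.61 ± 0.14 (SE; edgeR adjusted p = 0.0063), a rise of 52.9%. Without shRB 2 it was 0.78. It was 0.53 without shCON 2, 0.54 without shRB 1 and 0.50 without shRB 3. In these last fits NCAPD2 was higher, at 0.61, 0.62 and 0.59.

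MKI67 (ENST00000368654, chromosome 10), whose protein marks dividing cells in tumour pathology, rose less. It read 36.8, 34.1 and 32.2 CPM in shCON and 42.6, 38.3 and 49.8 CPM in shRB. Every shRB library was above every control, by a small margin in shRB 2. The log2 fold change was 0.33 ± 0.11 (SE; edgeR adjusted p = 0.039), a rise of 26.1%. The call was lost when any library other than shRB 2 was left out (edgeR adjusted p of 0.063 to 0.17), and also under upper quartile normalization (adjusted p = 0.058) and scaling to the library total alone (adjusted p = 0.070).

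Levels between genes were compared as CPM per kilobase of transcript. In shCON the order ran from NCAPH2 (22.3 ± 1.54) and NCAPD2 (19.0 ± 0.79), through TOP2A (11.5 ± 1.43), NCAPD3 (10.9 ± 0.40) and NCAPG2 (10.2 ± 0.48), to NCAPG (8.28 ± 0.73), NCAPH (7.29 ± 0.25), SMC4 (6.94 ± 1.91), SMC2 (4.93 ± 1.01) and MKI67 (2.71 ± 0.18 CPM per kilobase; SD, n = 3). TOP2A overlapped NCAPD3 and NCAPG2 in range, while NCAPG2 ended just below where NCAPD3 began. Ranges also overlapped among NCAPG, NCAPH and SMC4, and between SMC4 and SMC2. In shRB the order was the same except that NCAPG2 (14.3 ± 1.32) stood above NCAPD3 (13.4 ± 0.66), with overlapping ranges. The protein complexes hold their subunits in equal numbers, and the mRNA levels per kilobase of SMC2 and NCAPH2 were 4.93 and 22.3 in shCON. These transcripts also differ in GC content (37.6% and 62.1%), and the part of GC content in levels between genes was not tested. With the longest annotated transcript as the length, NCAPG2 was at 7.63 in place of 10.2 CPM per kilobase, below NCAPG.

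Genes that act on condensin or share its place on chromosomes were read from a list of 19, of which 17 were tested. Of these 10 rose, none fell and 7 were not called. Their median log2 fold change was 0.55. At an unadjusted p under 0.05 and in DESeq2 and limma-voom 0 fell as well. PLK1, a kinase that phosphorylates condensin II in early mitosis, rose from 68.5 ± 2.97 to 119.9 ± 8.24 CPM. CDK1, the mitotic kinase that activates both complexes, rose from 145 ± 13.2 to 258 ± 27.3 CPM. BIRC5 (survivin), of the chromosomal passenger complex that helps load condensin I, rose from 149 ± 6.67 to 238 ± 21.0 CPM (SD, n = 3). The edgeR adjusted p was 1.1e-05 for PLK1, 2.8e-05 for CDK1 and 5.3e-05 for BIRC5.

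Condensins belong to the SMC family, whose other complexes are cohesin, which holds sister chromatids together, and SMC5/6, a repair complex. Of 12 tested genes of these complexes and SMCHD1, 0 rose, 2 fell and 10 were not called, with a median of −0.037. Over all tested IDs 12.5% were called lower, so the count of 2 in 12 is near the background and is no result about this list. At an unadjusted p under 0.05, 0 rose and 5 fell, while over all 11712 IDs 2164 were higher and 2211 lower at that threshold. DESeq2 and limma-voom each called 0 higher and 2 lower. The cohesin ATPase SMC1A fell from 94.0 ± 9.91 to 59.4 ± 6.50 CPM (log2 fold change −0.67; edgeR adjusted p = 0.00033). SMC5 fell from 43.5 ± 6.10 to 30.3 ± 7.61 CPM (log2 fold change −0.53; adjusted p = 0.027), and its partner SMC6 was at 14.6 ± 3.43 and 9.83 ± 3.37 CPM (adjusted p = 0.063; SD, n = 3). These genes are also low in GC (median 40.5%), and their median difference between shRB 2 and the mean of the other shRB libraries was −0.48. Without shRB 2, 2 rose and 4 fell, without shCON 1 or shCON 3 only 1 fell, and with the GC correction 1 rose and 5 fell. Over all IDs, 2074 of 11877 were higher and 1956 lower without shRB 2. The IDs called lower were 912 of 11798 without shCON 1 and 964 of 11818 without shCON 3. With the GC correction 2669 of 11712 were higher and 2019 lower.

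Of 5 other topoisomerases 1 rose and 1 fell. Over all tested IDs 12.8% were called higher and 12.5% lower, so these counts are no result about this list. TOP1, the enzyme that relaxes supercoils by single-strand cuts, fell from 183 ± 24.8 to 126 ± 20.2 CPM, and TOP3A rose from 24.5 ± 3.14 to 31.1 ± 1.83 CPM (SD, n = 3; edgeR adjusted p of 0.0051 and 0.030). The TOP3A call was lost without shCON 1, shCON 2 or shRB 3. TOP1MT, of mitochondria, was at 42.4 ± 3.33 and 43.0 ± 4.66 CPM (adjusted p = 0.88).

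The wider cell cycle lists gave the setting of these rises. Of 28 other mitotic genes 21 rose, none fell and 7 were not called (median 0.55). The smallest p-values were those of the spindle factor TPX2, the centrosomal kinase NEK2 and the ubiquitin-conjugating enzyme UBE2C (log2 fold changes of 0.69, 0.81 and 0.81; edgeR adjusted p from 1.9e-05 to 6.3e-05). Of 19 S-phase genes 16 rose, none fell and 3 were not called (median 0.55); MCM2 and MCM4 of the replicative helicase and the thymidine kinase TK1 had the smallest p-values. At an unadjusted p under 0.05 and in DESeq2 and limma-voom, 0 genes of either list fell. In the list of RB family genes and regulators of late cell cycle transcription 6 of 18 rose and 1, RB1, fell. The mitotic activators FOXM1 (121 ± 6.31 to 192 ± 20.5 CPM) and MYBL2 (70.3 ± 8.04 to 107 ± 15.9 CPM; SD, n = 3) had the smallest p after RB1 (edgeR adjusted p of 9.5e-05 and 0.0015). The list medians are descriptions, and the difference between the 10 genes and the other lists was not tested.

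**Figure D5:**
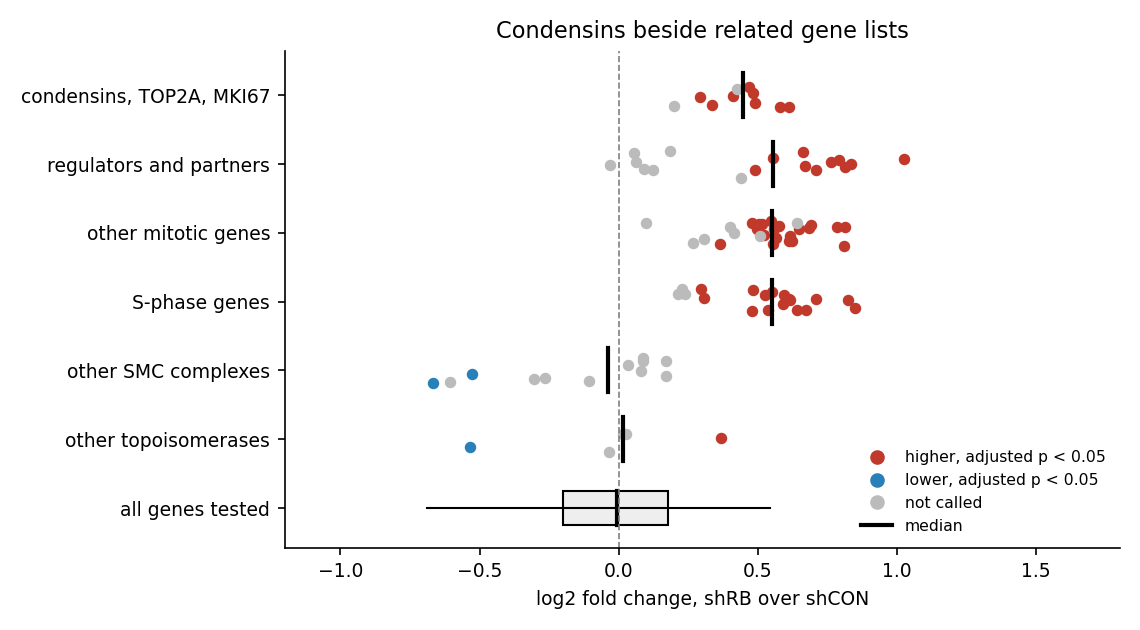
Log2 fold change of every tested gene in 6 lists (points, red where called higher and blue where called lower by edgeR at an adjusted p under 0.05, with the median as a bar) and of all 11712 IDs (box from the 25 to the 75 percentile, line from the 5 to the 95 percentile). Condensins, their partners, mitotic and S-phase genes lie to the right of 0 with medians of 0.45 to 0.55, and the other SMC complexes and topoisomerases are centred near 0.

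The mean centred log2 CPM profile of the 10 genes was −0.11, −0.29 and −0.22 across the control libraries in number order, and 0.31, −0.040 and 0.35 across the shRB libraries. NCAPG was nearest to it among the members (root mean square difference 0.056) and SMC2 farthest (0.34). Among 9752 other genes with a mean of at least 5 CPM, the nearest over the 6 libraries were ESCO2, an acetyltransferase that acts on cohesin in S phase (0.021), the synaptotagmin SYT4 (0.032), ARHGAP11A (0.033), SCML1 (0.034) and THUMPD3 (0.035). Their log2 fold changes ranged from 0.39 to 0.43, a closeness that follows from choosing them by this profile. The medians over all tested genes of the members' chromosomes ranged from −0.071 on chromosome 2 to 0.15 on chromosome 3.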

How the data were processed

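RNA-seq was available for 6 LNCaP libraries, grouped by their titles. The authors deposited raw read counts, whole numbers per transcript ID and library without normalization; the submitters' processing notes list STAR, HOMER, edgeR and hg19 without version or role. For annotation, counting options and strand, the choice made is not given in the sources used here. IDs were matched to GENCODE release 29 (22182 of 22279; the other 97 held 0.377% of counts and stayed in the totals), which describes another build and gave names, chromosomes, exon overlap, length and GC content only. Promoter windows came from RefSeq (GRCh38.p14). Protein features were not analysed here.

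Genes kept by filterByExpr (minimum count 10, minimum total 15) were normalized by TMM and tested with edgeR 4.0.16 (glmQLFit and glmQLFTest, R 4.3.3), with group as the only term and Benjamini-Hochberg adjustment over 11712 IDs at 0.05. SE is the log2 fold change divided by the square root of F. CPM uses TMM-adjusted totals, and log2 CPM a prior count of 2. Tested on simulated counts for this comparison (11626 genes), the procedure recovered 18.4% of genes changed 1.25-fold and 77.1% of those changed 1.5-fold, with 9 false calls of 153. No replicate pair agreed within counting error (lowest chi-square 2.23 per degree of freedom), so each library counts once.

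Named genes are the 10 members, RB1, at most the 3 genes with the smallest p in each list and the 5 nearest profiles, with LCORL, TRIM59, IFT80 and the markers beside results they touch. The members and lists were chosen with earlier results of these data known. Alternatives were DESeq2 1.42.0, limma-voom (limma 3.58.1), relative log expression, upper quartile and total-count scaling, no filter, a filter of 1 CPM, a block for the replicate number, a GC correction (loess, span 0.5), each library left out and an adjusted p under 0.01. Leaving out shRB 2 and shCON 1 together was added after the data were seen.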

Additional observations from a re-analysis of the deposited data

How the results depend on the processing

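The 0 lower calls among the 10 genes and the positive sign of their median (0.40 to 0.55) held under every alternative run. NCAPD2, NCAPH, NCAPG2, NCAPH2 and TOP2A kept their calls in all 18. With 1 library left out, 5 to 10 of the 10 genes rose, and over all IDs 863 to 2074 were higher and 912 to 1956 lower. SMC2 was −0.018 without shRB 3, the only change of direction among the 10 genes, and 0.71 without shRB 2 and shCON 1 together. The low counts over all IDs came without shCON 1 (863 and 912) and shCON 3 (969 and 964). At an adjusted p under 0.01, 5 of the 10 genes rose, and 787 IDs were higher and 793 lower. With the GC correction 2669 IDs were higher, against 1499. With the replicate block 2203 IDs were higher, 2294 were lower and 9 of the 10 genes rose, SMC4 added (edgeR adjusted p = 0.0037). With the replicate block and GC correction together 2822 IDs were higher and all 10 genes rose. The shallowest library, shCON 3 (6115310 counts), held the fewest counts of any of the 10 genes, 128 for NCAPH, so small differences are least certain there. Whether the numbers pair the libraries is not known. Deviations from the group means of same-numbered libraries had correlations of 0.24, 0.35 and −0.00032. The 0.35 of number 2 was the highest between any shCON and shRB library, while shRB 3 correlated best with shCON 1 (0.27). With so few libraries per group these correlations cannot settle the pairing.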

Other observations

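The promoter letters were also counted over tested genes outside the 10. Of 1185 tested genes with TTTGAA in a promoter window 15.02% were called higher and 12.3% lower by edgeR, and of 7862 genes without it 12.6% were called higher and 12.4% lower. With both TTTGAA and CCAAT (659 genes) 15.9% were higher. With an E2F sequence (605 genes) 16.7% were higher and 9.26% lower. These shares are descriptions and were not tested.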
